A study of Mus musculus with 21 samples.

Results

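The genes described are the Krüppel-like factors other than Klf1: Klf2, Klf3, Klf4, Klf5, Klf6, Klf7, Klf9, Klf10 and Klf13. They were found by matching the RefSeq accession of every array probe that was not a control to these 9 symbols, which gave 13 probes and left no member without a probe, among 18213 genes named on the array. Where a gene had a second probe (Klf2, Klf3, Klf6 and Klf9), the probe with the higher mean over all arrays stood for the gene and the other is given beside it.

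Transcripts were measured on 21 arrays, each hybridised with RNA of 1 sample of bone marrow cells from C57BL/6 mice, in 7 sorted fractions of 3 arrays. KLS cells lacked lineage antigens and carried Kit and Sca1, and hold the multipotent cells. On the erythroid side PreMegE cells carried CD150 without CD105 or Fc gamma receptors, CFUe is named for colony-forming erythroid progenitors, and Ter119 cells carried CD71 and Ter119. On the myeloid side PreGM cells lacked all 3 of those progenitor antigens, GMP cells carried Fc gamma receptors, and Mac1Gr1 cells were sorted for Mac1 and Gr1. The lineage antigens excluded from KLS and the 4 progenitor fractions were B220, CD3, CD4, CD8, CD41, Mac1, Gr1 and Ter119. The labels give CFUe and PreGM one and the same marker string, and list Sca1 as present in all 4 intermediate fractions; the fraction names were used as given. No agent, transgene or deletion is named for any group, and the labels do not say whether the arrays of a fraction came from separate mice, so p values measure the spread between arrays, which may be technical.

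Krüppel-like factors are transcription factors that bind GC-rich and CACCC boxes through zinc fingers at their C terminus, while their N termini recruit different partners. Klf2, Klf4, Klf5, Klf6 and Klf7 are mostly known as activators, although Klf4 can also repress; Klf3 recruits the CtBP co-repressors; and Klf9, Klf10 and Klf13 recruit Sin3A. In blood, Klf2 is known for keeping lymphocytes quiescent, Klf4 for monocyte differentiation, and Klf3 as a gene that Klf1, the erythroid factor of the family, switches on in red cell precursors.

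A level is the background-corrected intensity on the log2 scale, set against the array's own 75th percentile, so that 0 equals that percentile, and levels are compared between fractions for a probe, never between probes. A change was called when limma, fitted over the 29532 probes that some fraction showed well above background on each of its arrays, gave a Benjamini-Hochberg adjusted p under 0.05 and at least a 2-fold difference. All 9 members were tested. The words rose and fell are used of called changes only. All adjusted p values below come from that fit, in which the 7 fractions shared the estimate of the spread.

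Some features of the arrays bear on every result. Each array correlated best with an array of its own fraction, and between 56.4% and 77.4% of probes per array were well above background. The summed linear level of 10 erythroid genes, in multiples of the 75th percentile, was 3464 to 4412 in Ter119 and 98.98 to 106.6 in CFUe, the 2 highest fractions. That of 12 granulocytic genes was 5265 to 5895 in Mac1Gr1. Ter119 carried the same granulocytic genes at 4717 to 5926, against 5.86 to 45.1 in CFUe, and 7 B cell genes at 112 to 160, against 25.3 to 45.1 in Mac1Gr1, all 7 of them well above background. KLS carried 8 macrophage genes at 25.4 to 71.6, against 0.380 to 0.933 in PreMegE. The Y-linked transcript Ddx3y was well above background on all arrays of KLS, PreMegE and Ter119, on none of GMP and Mac1Gr1, and on replicate 3 alone in CFUe and in PreGM. Arrays within CFUe and within PreGM thus differed in the sex-linked RNA they held. Every Ter119 array differed in it from every Mac1Gr1 array, so that fraction and sex-linked RNA cannot be told apart there. The other comparisons share this limit in part, except KLS to PreMegE and GMP to Mac1Gr1. In such bulk fractions, fewer cells of a type and less RNA per cell cannot be told apart.

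The upstream sequences of 4 genes are shown because they belong to the members with the largest changes at the CFUe stage: Klf2, Klf4 and Klf6, which had their lowest level there (Klf2 by 1 of its probes), and Klf3, which had risen there. Each is the stretch of 250 bases before the annotated transcript start, read 5′ to 3′ on the gene's strand, from RefSeq (GRCm38.p6). Capitals mark matches to CCNCNCCC, a box of the GC or CACCC type that Krüppel-like and Sp factors bind, on either strand; overlapping matches run together.
Klf2, chr8:72318812-72319061, plus strand: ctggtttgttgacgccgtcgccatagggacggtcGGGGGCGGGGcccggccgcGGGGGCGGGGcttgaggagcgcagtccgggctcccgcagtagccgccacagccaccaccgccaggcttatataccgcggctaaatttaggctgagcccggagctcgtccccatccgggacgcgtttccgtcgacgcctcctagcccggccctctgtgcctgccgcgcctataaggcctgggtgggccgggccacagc
Klf4, chr4:55532476-55532725, minus strand: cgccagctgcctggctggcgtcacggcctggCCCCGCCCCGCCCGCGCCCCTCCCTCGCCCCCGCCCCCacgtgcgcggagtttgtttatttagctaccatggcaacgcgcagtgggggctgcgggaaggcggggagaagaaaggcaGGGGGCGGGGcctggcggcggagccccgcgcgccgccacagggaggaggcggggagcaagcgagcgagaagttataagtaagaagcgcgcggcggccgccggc
Klf6, chr13:5861239-5861488, plus strand: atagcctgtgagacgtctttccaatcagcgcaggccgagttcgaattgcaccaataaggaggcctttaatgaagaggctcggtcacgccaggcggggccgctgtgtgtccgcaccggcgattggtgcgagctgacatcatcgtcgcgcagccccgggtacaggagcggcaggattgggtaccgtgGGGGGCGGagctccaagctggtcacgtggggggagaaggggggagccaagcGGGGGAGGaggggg
Klf3, chr5:64803271-64803520, plus strand: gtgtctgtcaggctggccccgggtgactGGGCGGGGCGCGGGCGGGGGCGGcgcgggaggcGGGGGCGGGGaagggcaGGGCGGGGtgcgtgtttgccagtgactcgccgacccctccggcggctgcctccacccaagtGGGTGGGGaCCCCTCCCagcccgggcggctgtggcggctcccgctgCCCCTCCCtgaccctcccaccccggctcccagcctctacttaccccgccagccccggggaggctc
The box was found 4 times before Klf2, 9 times before Klf4, 2 times before Klf6 and 10 times before Klf3, counting overlapping matches, and the GC content of the stretches was 71.2%, 74.0%, 64.8% and 78.4%. Over all 32851 stretches of the same length, 45.9% held at least 1 such box and 27.3% at least 2, and the median GC content was 52.4%. Promoters were matched for 7 of the 9 members, Klf5 and Klf10 being unmatched. Klf7 had 8 matches, Klf13 had 5, and Klf9 had 0. Searches on both strands for AGATAA (the GATA type, in 9.99% of all stretches), GGAAGT (ETS type, 19.7%), TATTTATA (MEF2 type, 1.56%) and TGACGTCA (the cyclic AMP response element, 1.55%) found no match before any of the 7, which says only that these letters are not in this window.

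**Figure D1:**
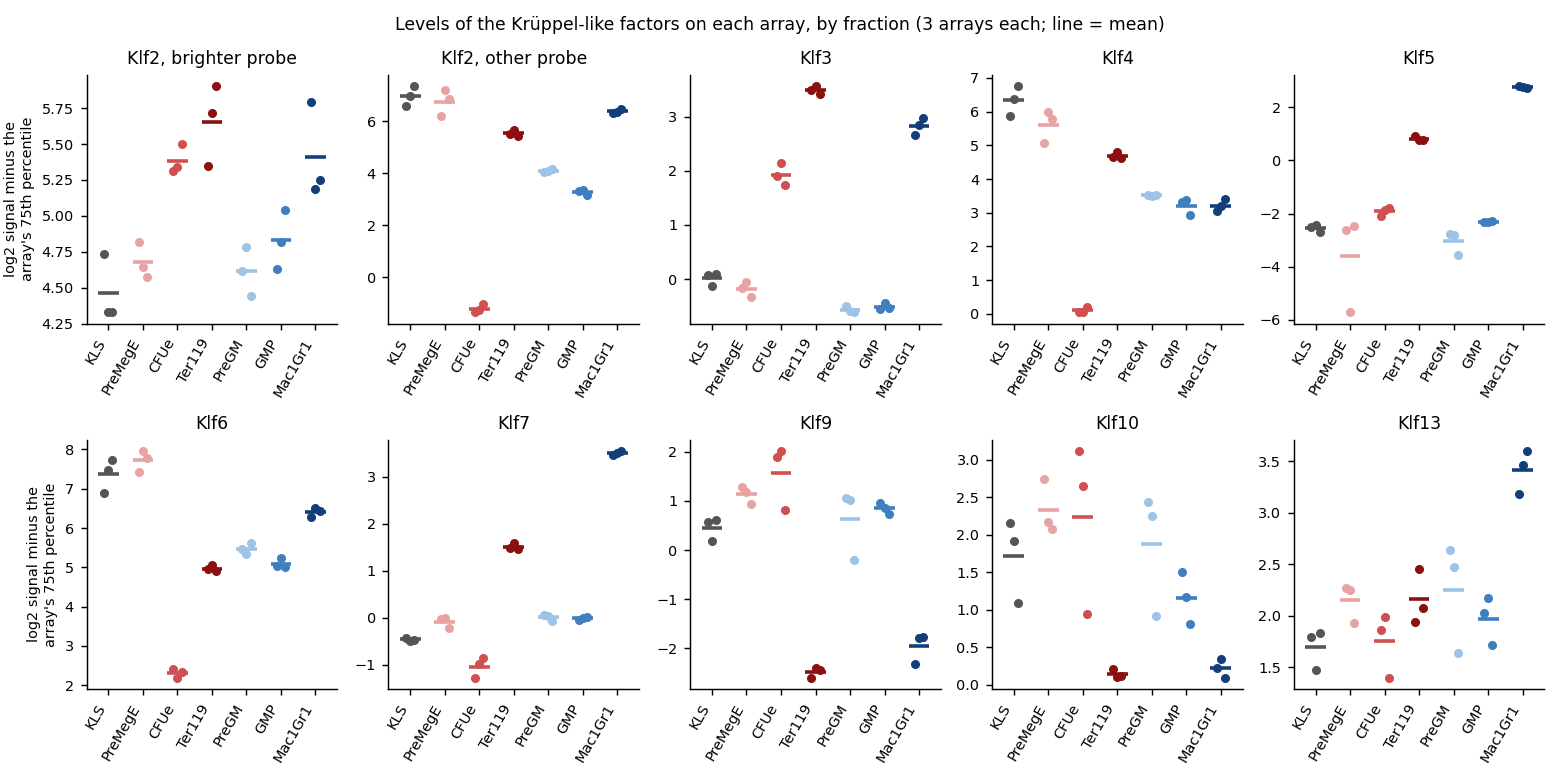
Level of each member (log2 intensity minus the 75th percentile of the array, vertical axes differing between panels) on every array of the 7 fractions, with a line at the mean of 3 arrays and both probes of Klf2. Klf4 lies between 0.04 and 0.21 in CFUe and at 2.93 or more everywhere else, and Klf6 between 2.19 and 2.41 in CFUe and at 4.90 or more everywhere else, whereas Klf3, Klf5 and Klf7 lie highest in Ter119 and Mac1Gr1.

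Klf4, a zinc finger factor of monocytes and of pluripotent cells, was highest in KLS and PreMegE and lowest in CFUe. Its level was 5.88, 6.36 and 6.77 on the KLS arrays, 5.07, 5.99 and 5.79 in PreMegE and 0.05, 0.04 and 0.21 in CFUe. It was 4.65, 4.79 and 4.63 in Ter119, 3.52, 3.50 and 3.53 in PreGM, 3.32, 3.37 and 2.93 in GMP and 3.04, 3.20 and 3.39 in Mac1Gr1. The CFUe arrays overlapped with no other fraction, and the mean of KLS was 75.4-fold that of CFUe. In the order of means, KLS and PreMegE differed by less than the sum of their SDs, as did Mac1Gr1 and GMP, while the steps between the other neighbours were larger. Klf4 fell by 5.51 from PreMegE to CFUe (SE 0.22, adjusted p = 1.25e-11) and rose by 4.59 from CFUe to Ter119 (SE 0.22, adjusted p = 5.75e-12). On the myeloid side it fell by 2.82 from KLS to PreGM (SE 0.22, adjusted p = 1.41e-07), and its later changes there, -0.31 and 0.01, were not called.

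Klf6, an early response factor that can induce the cell cycle inhibitor Cdkn1a, had the same low point. Its level was 6.89, 7.48 and 7.73 in KLS, 7.43, 7.96 and 7.78 in PreMegE, 2.41, 2.19 and 2.34 in CFUe and 4.95, 5.05 and 4.90 in Ter119. It was 5.46, 5.34 and 5.63 in PreGM, 5.03, 5.23 and 5.01 in GMP and 6.28, 6.50 and 6.42 in Mac1Gr1. Again no CFUe array overlapped with another fraction, and the mean of PreMegE, the highest, was 42.5-fold that of CFUe. PreMegE and KLS, and GMP and Ter119, were neighbours that did not differ beyond their spread. Klf6 fell by 5.41 from PreMegE to CFUe (SE 0.18, adjusted p = 1.27e-12) and rose by 2.65 from CFUe to Ter119 (SE 0.18, adjusted p = 4.10e-10), where it stayed below its KLS arrays. From KLS to PreGM it fell by 1.89 (SE 0.18, adjusted p = 1.06e-06). Its second probe followed the first over the 21 arrays (Pearson r = 0.993) and gave -5.48 at the step to CFUe.

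Klf2, the lymphocyte quiescence factor, was measured by 2 probes that disagreed, with a Pearson r of -0.29 over the 21 arrays. Both are annotated to the same RefSeq transcript, and which of them follows Klf2 RNA was not tested. The brighter probe (A_52_P442031) gave 4.73, 4.33 and 4.33 in KLS, 4.82, 4.64 and 4.57 in PreMegE, 5.31, 5.34 and 5.50 in CFUe, 5.35, 5.72 and 5.91 in Ter119, 4.62, 4.79 and 4.44 in PreGM, 4.63, 4.82 and 5.04 in GMP and 5.79, 5.19 and 5.25 in Mac1Gr1. These levels moved little: the highest mean, in Ter119, was 2.28-fold the lowest, in KLS, CFUe against GMP was the only step between neighbours that exceeded their spread, and no change of this probe was called. The other probe (A_51_P144264) gave 6.59, 6.98 and 7.36 in KLS, 6.21, 7.18 and 6.84 in PreMegE, -1.36, -1.25 and -1.03 in CFUe and 5.51, 5.66 and 5.42 in Ter119. Among the myeloid fractions it gave 4.05, 4.06 and 4.15 in PreGM, 3.32, 3.35 and 3.14 in GMP and 6.31, 6.35 and 6.48 in Mac1Gr1. By that probe CFUe lay far below every other fraction, and KLS was 292-fold above it. These low CFUe values entered the means that decided which probe stood for Klf2, 5.01 for the brighter and 4.54 for the other. In KLS, PreMegE and Mac1Gr1 the other probe had the higher mean (6.98, 6.74 and 6.38, against 4.46, 4.68 and 5.41). The counts of members use the brighter probe, by which Klf2 was not called.

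At the step to CFUe, the step to Ter119 and the step to PreGM, the second Klf2 probe changed in the direction of Klf4 and Klf6. It fell by 7.96 from PreMegE to CFUe (SE 0.20, adjusted p = 1.12e-13), where the brighter probe gave 0.71 (SE 0.18, adjusted p = 0.00356, below 2-fold). It rose by 6.74 from CFUe to Ter119 (SE 0.20, adjusted p = 2.94e-14) against 0.27 for the brighter probe. From KLS to PreGM it fell by 2.89, and from GMP to Mac1Gr1 it rose by 3.11, against 0.15 and 0.58 for the brighter probe. At that last step Klf6 rose by 1.31 and Klf4 gave 0.01. Over the 21 arrays this probe correlated with Klf6 at r = 0.935 and with Klf4 at r = 0.909, and Klf4 with Klf6 at r = 0.891, values that describe the same 7 fractions and carry no test.

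**Figure D2:**
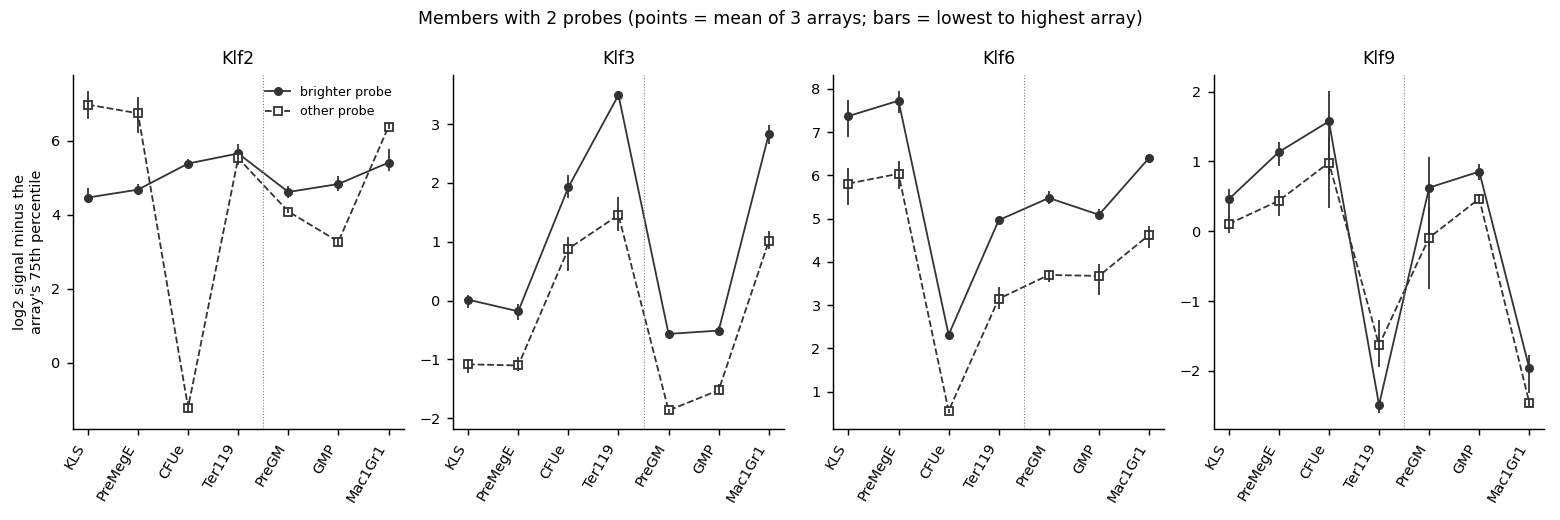
Levels of the 4 members with 2 probes (log2 intensity minus the 75th percentile of the array): points are means of 3 arrays, bars run from the lowest to the highest array, and the dotted line parts the erythroid from the myeloid side. The probes of Klf3, Klf6 and Klf9 run side by side, whereas those of Klf2 part in CFUe, at 5.38 and -1.21.

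Klf3, the CtBP-binding repressor, went the other way at the CFUe stage. Its level was 0.08, -0.13 and 0.09 in KLS, -0.17, -0.06 and -0.33 in PreMegE, 1.89, 2.14 and 1.74 in CFUe and 3.49, 3.57 and 3.42 in Ter119. Among the myeloid fractions it was -0.50, -0.59 and -0.61 in PreGM, -0.56, -0.44 and -0.53 in GMP and 2.66, 2.84 and 2.98 in Mac1Gr1. CFUe, Mac1Gr1 and Ter119 stood above all other arrays and apart from each other, and KLS and PreMegE, and GMP and PreGM, did not differ beyond their spread. Klf3 rose by 2.11 from PreMegE to CFUe (SE 0.12, adjusted p = 4.79e-10) and by 3.34 from GMP to Mac1Gr1 (SE 0.12, adjusted p = 1.54e-13). From CFUe to Ter119 it rose by 1.57 (SE 0.12, adjusted p = 2.08e-09), but this call was lost with the second probe (0.57) and with scaling to the spike-in RNAs (0.19). Klf1 itself, the erythroid relative, had a mean of 2.21 in PreMegE and 3.91 in CFUe, and -4.24 in GMP and -4.00 in Mac1Gr1. The part of Klf1 in the changes of Klf3 was not tested.

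Klf5, an activator known from epithelia and from granulocyte differentiation, was highest in the mature fractions. Its level was -2.52, -2.42 and -2.68 in KLS, -2.62, -5.72 and -2.48 in PreMegE, -2.10, -1.88 and -1.79 in CFUe and 0.90, 0.77 and 0.77 in Ter119. It was -2.76, -2.81 and -3.55 in PreGM, -2.33, -2.31 and -2.27 in GMP and 2.81, 2.76 and 2.74 in Mac1Gr1, the 3 highest values. PreMegE replicate 2, at -5.72, was the only array on which a member's main probe was not well above background. Klf5 rose by 5.07 from GMP to Mac1Gr1 (SE 0.55, adjusted p = 2.13e-07) and by 2.74 at the last erythroid step (SE 0.55, adjusted p = 2.28e-04). The call of 1.68 from PreMegE to CFUe (SE 0.55, adjusted p = 0.0164) rested on that array: without PreMegE replicate 2 the change was 0.63, below 2-fold. It was lost as well in a fit with slides as blocks (change 1.35, with an adjusted p of 0.185), and was 0.74 between the 2 arrays of these fractions that shared a slide. The change from KLS to PreMegE, -1.07 and not called, rested on the same array: it was -0.01 without PreMegE replicate 2, and a called -1.63 without PreMegE replicate 3, which keeps that array.

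Klf7, an activator known from neurons, also had its 2 highest fractions among the mature cells. It lay at -0.42, -0.49 and -0.46 in KLS, -0.02, -0.01 and -0.22 in PreMegE, -1.27, -0.99 and -0.85 in CFUe and 1.48, 1.60 and 1.47 in Ter119. Among the myeloid fractions it lay at 0.06, 0.03 and -0.06 in PreGM, -0.05, -0.01 and 0.03 in GMP and 3.47, 3.52 and 3.55 in Mac1Gr1. CFUe was its lowest fraction, and PreGM, GMP and PreMegE followed each other within their spread. Klf7 rose by 2.55 from CFUe to Ter119 (SE 0.10, adjusted p = 7.76e-13) and by 3.52 at the last myeloid step (SE 0.10, adjusted p = 2.36e-14). The change from PreMegE to CFUe, -0.95 (SE 0.10, adjusted p = 9.33e-07), was just short of 2-fold and was called without CFUe replicate 3 (-1.05) or PreMegE replicate 3 (-1.02).

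The Sin3A-binding repressors did not share a pattern: Klf9 and Klf10 were lowest in the mature fractions, whereas Klf13 was highest in Mac1Gr1. Klf9, which glucocorticoid and thyroid hormone induce, lay at 0.57, 0.19 and 0.61 in KLS, 1.28, 1.19 and 0.94 in PreMegE, 1.90, 2.01 and 0.81 in CFUe and -2.60, -2.41 and -2.45 in Ter119. It lay at 1.07, 1.01 and -0.20 in PreGM, 0.97, 0.86 and 0.74 in GMP and -2.32, -1.79 and -1.77 in Mac1Gr1, so that the 6 arrays of mature cells held the 6 lowest values. The 5 other fractions followed each other within their spread. Klf9 fell by 4.06 from CFUe to Ter119 (SE 0.32, adjusted p = 3.02e-09) and fell by 2.82 at the last myeloid step (SE 0.32, adjusted p = 3.46e-07). By its second probe (r = 0.946 with the first) the falls were 2.61 and 2.92, and Mac1Gr1 rather than Ter119 was lowest.

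Klf10, a factor that TGF-beta induces early, lay at 2.16, 1.92 and 1.08 in KLS, 2.74, 2.17 and 2.08 in PreMegE, 3.11, 2.65 and 0.94 in CFUe and 0.20, 0.10 and 0.11 in Ter119. It lay at 2.43, 2.25 and 0.92 in PreGM, 1.50, 1.17 and 0.80 in GMP and 0.22, 0.34 and 0.09 in Mac1Gr1. The mature fractions were again the lowest and did not differ beyond their spread, nor did PreMegE, CFUe, PreGM, KLS and GMP in that order. Klf10 fell by 2.10 from CFUe to Ter119 (SE 0.46, adjusted p = 5.79e-04), and its change of -0.94 from GMP to Mac1Gr1 was not called (SE 0.46, adjusted p = 0.0757).

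Klf13, which acts on cytokine genes of T cells, varied least apart from the brighter probe of Klf2. Its level was 1.79, 1.47 and 1.83 in KLS, 2.27, 2.25 and 1.93 in PreMegE, 1.86, 1.99 and 1.40 in CFUe and 1.94, 2.45 and 2.08 in Ter119. It was 2.64, 2.48 and 1.64 in PreGM, 2.02, 2.17 and 1.72 in GMP and 3.18, 3.46 and 3.60 in Mac1Gr1, the only fraction that stood apart from its neighbour. Klf13 rose by 1.44 from GMP to Mac1Gr1 (SE 0.24, adjusted p = 3.27e-05).

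**Figure D3:**
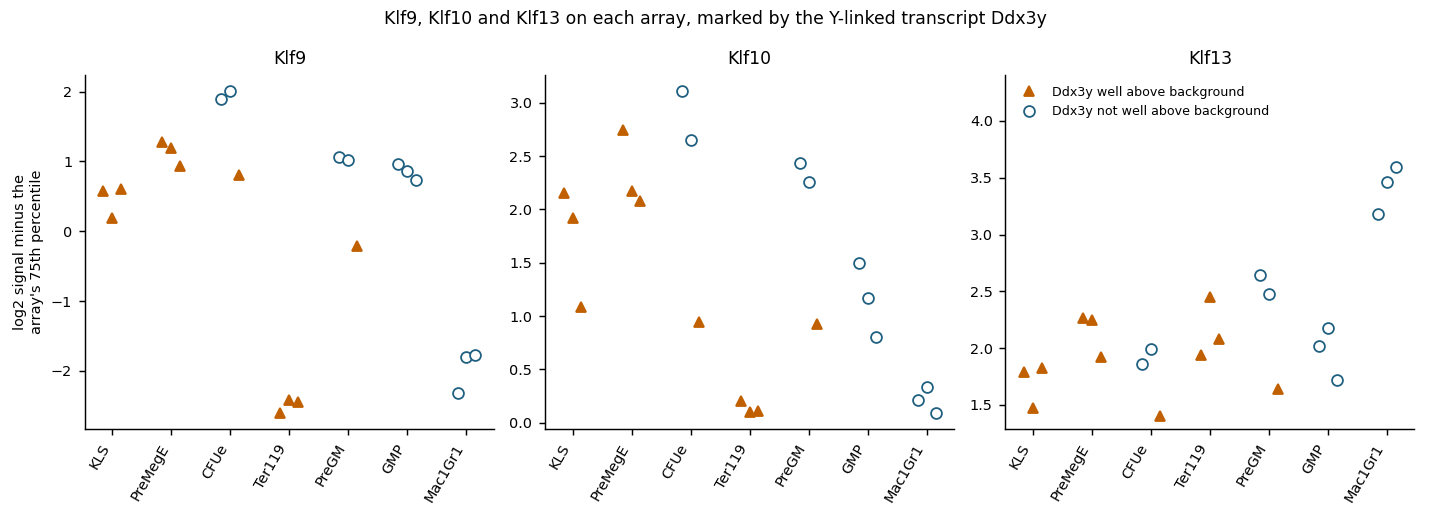
Levels of Klf9, Klf10 and Klf13 on each array (log2 intensity minus the 75th percentile of the array), replicates 1 to 3 from left to right within a fraction; filled triangles are arrays with the Y-linked transcript Ddx3y well above background and open circles the others. In CFUe and PreGM the single triangle lies below both circles for all 3 genes.

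In CFUe and PreGM, Klf9, Klf10 and Klf13 were lower on the array with the sex-linked transcript in both fractions. The array with Ddx3y, replicate 3 in both fractions, minus the mean of the other 2 arrays was -1.94 in CFUe and -1.42 in PreGM for Klf10. For Klf9 the differences were -1.15 and -1.24, and for Klf13 -0.53 and -0.92. Over all probes tested, 3.42% were at least 1 lower on that CFUe array and 4.90% on that PreGM array. Klf5 differed by -0.77 in PreGM and 0.20 in CFUe, and Klf3 by -0.55 in CFUe by its second probe (-0.28 by its first). Klf2, Klf4, Klf6 and Klf7 differed by at most 0.28 between these arrays, by the main probe or the other. The array also decided calls: without CFUe replicate 3, Klf9 (1.10) and Klf10 (1.73) were called higher in CFUe than in GMP. With Ddx3y as a block in the fit, Klf10 was called lower in CFUe than in PreMegE (-1.22) and its fall to Ter119 was -0.98, short of 2-fold. That block rests on the arrays of CFUe and PreGM, the only fractions in which Ddx3y differed between arrays. Replicate 3 was also the lowest Klf10 array in KLS (1.08), PreMegE (2.08), GMP (0.80) and Mac1Gr1 (0.09), though not in Ter119. In none of these fractions did Ddx3y differ between the arrays. For Klf9 and Klf13, replicate 3 was also the lowest in PreMegE and GMP, but not in KLS, Ter119 or Mac1Gr1. The part of the mice's sex, or of the replicate, in these values was not tested.

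**Figure D4:**
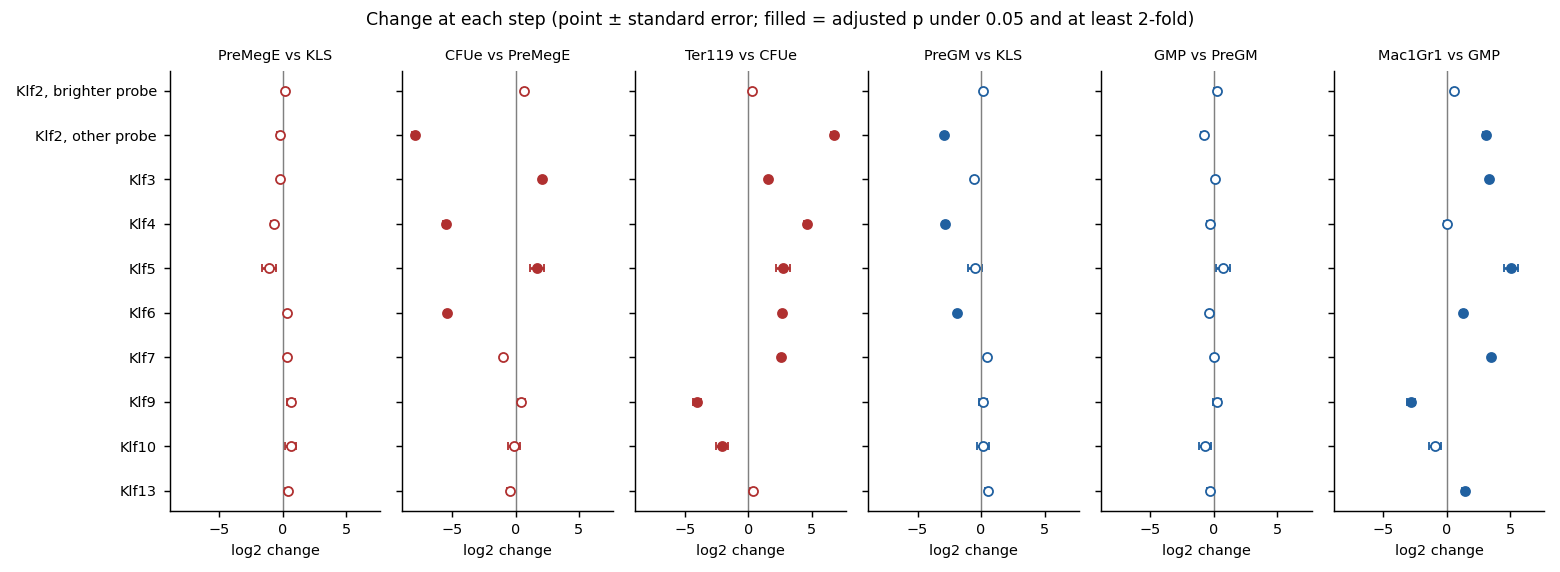
Change of each member at the 3 erythroid steps (red) and the 3 myeloid steps (blue), as log2 difference with its standard error from the fit of all 7 fractions; filled points were called. The steps to PreMegE and to GMP hold no filled point, and the step to CFUe holds both the deepest falls (Klf4, Klf6 and the second probe of Klf2) and the rises of Klf3 and Klf5. The Klf5 call at the step to CFUe was lost without PreMegE replicate 2.

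Read by step, the first erythroid step called 0 of 9 members. From KLS to PreMegE the changes lay between -1.07 (Klf5) and 0.68 (Klf9), where 3.55% of all probes were called higher and 8.86% lower. At an adjusted p under 0.05 with no minimum fold, Klf4 (-0.72) and Klf7 (0.37) passed. Of the members, 3 passed an unadjusted p under 0.05. The macrophage genes had the summed levels given above, at most 0.933 in PreMegE, while Klf4 and Klf6 changed by -0.72 and 0.35, and their part in these values was not tested. At the step to CFUe, 2 of 9 members rose (Klf3 and Klf5) and 2 fell (Klf4 and Klf6), where 9.96% of probes were called higher and 14.7% lower. The call of Klf5 rested on PreMegE replicate 2, as given above. The median change of the members was -0.10, against 0.12 over all probes. All 7 megakaryocyte genes fell at this step, with a median of -3.70 and a summed level of 42.9 to 52.8 in PreMegE and 3.17 to 3.90 in CFUe, and 6 of 12 granulocytic genes fell and 1 rose. Their part in the changes of the members was not tested. At the step to Ter119, 5 members rose and 2 fell, where the shares over all probes were 29.2% and 28.0%, so that most of the array moved too, and the median of the members was 1.57 against 0.05. The granulocytic and B cell genes were higher in Ter119 than in CFUe, as given above. The 8 macrophage genes rose as well (0.288 to 0.434 in CFUe and 8.96 to 9.63 in Ter119), as did 5 T cell genes (0.628 to 0.944 and 11.8 to 13.0). The part of all these genes in the rises of Klf3, Klf4, Klf5, Klf6 and Klf7 was not tested. The 2 arrays of PreMegE and CFUe on a shared slide gave -5.03 for Klf4, -5.24 for Klf6 and 2.31 for Klf3, and those of CFUe and Ter119 gave 4.58 for Klf4, 2.49 for Klf6, 2.74 for Klf7 and -4.35 for Klf9.

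On the myeloid side, the step from KLS to PreGM called 2 members, both lower (Klf4 and Klf6), where 2.11% of probes were called higher and 6.53% lower. All 8 macrophage genes fell at this step, with a median of -6.53, from a summed level of 25.4 to 71.6 in KLS to 0.816 to 1.01 in PreGM, and their part in the falls of Klf4 and Klf6 was not tested. The step to GMP called 0 of 9, with changes between -0.71 (Klf10) and 0.74 (Klf5), against 4.01% higher and 6.36% lower over all probes. In that fit 1 member passed an unadjusted p under 0.05 by the main probe, and the second probe of Klf2 gave -0.81 (SE 0.20, adjusted p = 0.00698). The step to Mac1Gr1 called 5 higher (Klf3, Klf5, Klf6, Klf7 and Klf13) and 1 lower (Klf9), against 29.1% and 27.6% of all probes, with a median of 1.31 for the members and 0.17 for all probes. All 7 B cell genes rose here (summed level 8.68 to 10.2 in GMP and 25.3 to 45.1 in Mac1Gr1), as did 7 of 8 macrophage genes (7.39 to 8.63 and 17.7 to 20.7) and 8 of 12 granulocytic genes, the other 4 falling, and their part in the changes of the members was not tested. Klf6 rose by 1.31 (SE 0.18, adjusted p = 3.31e-06) by its brighter probe and gave 0.95 by the other, below 2-fold. Under scaling to the spike-in RNAs, which set the median of all probes at this step to -1.86, Klf6 became -0.72 and Klf13 -0.59.

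Between lineages, PreMegE stood above PreGM for Klf4 (2.10, SE 0.22, adjusted p = 1.57e-06) and Klf6 (2.25, SE 0.18, adjusted p = 5.40e-08), 2 members, both higher, where 5.81% of probes were called higher and 6.23% lower. The 2 pairs of arrays of these fractions that shared a slide gave 2.26 and 2.47 for Klf4 and 2.16 and 2.50 for Klf6. All 7 megakaryocyte genes were higher in PreMegE too (5.14 to 6.31 in PreGM), and their part was not tested. CFUe against GMP called 1 member higher (Klf3, 2.44) and 3 lower (Klf4, -3.10, Klf6, -2.77, and Klf7, -1.02), against 12.1% and 14.2% of probes. The call of Klf7 was lost without CFUe replicate 1 (-0.91) and with quantile scaling (-0.93), normexp correction (-0.83), the series table (-0.93) or slides as blocks (each short of 2-fold). Ter119 against Mac1Gr1 called Klf4 higher (1.48) and 4 lower (Klf5, -1.95, Klf6, -1.44, Klf7, -1.99, and Klf13, -1.25), against 22.0% and 19.9%. Of these 5, Klf6 and Klf7 were called under every alternative. Klf4 lost its call with spike-in scaling (0.75), Klf5 with slides as blocks (-1.81) and with the Ddx3y block (-1.67), and Klf13 with the Ddx3y block (-0.53), quantile scaling (-0.84) and the series table (-0.89). Ddx3y was well above background on all Ter119 arrays and on no Mac1Gr1 array, and the part of sex in these differences was not tested.

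Whether a step differed between the lineages was tested as the erythroid change minus the myeloid change. At the second step (PreMegE to CFUe against PreGM to GMP), 3 members passed, where 20.2% of probes did in either direction: Klf4 by -5.20 (SE 0.31, adjusted p = 3.21e-09), Klf6 by -5.02 (SE 0.25, adjusted p = 4.93e-10) and Klf3 by 2.05 (SE 0.17, adjusted p = 9.44e-08). The second probe of Klf2 gave -7.14 (SE 0.29) and the brighter one 0.49 (SE 0.26, not called). The call of Klf3 was lost with spike-in scaling (0.52), which set the median of all probes to -1.39. Without CFUe replicate 3, Klf7 was called too (-1.02, otherwise -0.93). At the third step (CFUe to Ter119 against GMP to Mac1Gr1), 6 members passed, against 39.9% of all probes. Klf4 (4.58, SE 0.31, adjusted p = 3.35e-09) and Klf6 (1.34, SE 0.25, adjusted p = 2.41e-04) were the 2 that moved further up on the erythroid side. Klf5 (-2.34, SE 0.77), Klf3 (-1.77, SE 0.17), Klf9 (-1.24, SE 0.45) and Klf13 (-1.03, SE 0.34) moved further up, or less far down, on the myeloid side.

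Of the third-step differences, those of Klf3 and Klf4 were called under every alternative. With slides as blocks the calls of Klf5 (-1.46) and Klf6 (0.81) were lost, and Klf5 lost its call also with spike-in scaling (-1.68) and with the Ddx3y block (-2.15). Klf9 and Klf13 were the least firm, and were not called with slides as blocks (-1.33 and -0.93), spike-in scaling (-0.59 and -0.38) or the Ddx3y block (-0.45 and -0.55). The call of Klf9 was lost on leaving out CFUe replicate 1 (-1.08), CFUe replicate 2 (-1.02), Mac1Gr1 replicate 2 (-1.16), Mac1Gr1 replicate 3 (-1.15) or Ter119 replicate 1 (-1.19), and its second probe gave 0.31. The call of Klf13 was lost on leaving out CFUe replicate 1 (-0.98) or 2 (-0.91), GMP replicate 3 (-0.91), Mac1Gr1 replicate 3 (-0.94), or Ter119 replicate 1 (-0.93) or 3 (-0.99). Klf10, not called here at -1.16, was called without CFUe replicate 3 (-1.80), and Klf7, at -0.97, without CFUe replicate 1 (-1.09) or Ter119 replicate 2 (-1.01).

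Genes known as targets of Klf2, Klf4 or Klf6 fell at the step to CFUe as well. The 5 analysed (S1pr1, a lymphocyte egress receptor; the integrin chain Itgb7; Cdkn1a; thrombomodulin, Thbd; and Nos3, the endothelial nitric oxide synthase) fell from PreMegE to CFUe, against 14.7% of all probes, with a median change of -4.54. S1pr1 had a mean level of 1.17 in PreMegE and -3.37 in CFUe, and rose by 4.98 from CFUe to Ter119. Cdkn1a lay at 1.78 in PreMegE and -2.97 in CFUe, its lowest fraction, and rose by 2.08 to Ter119. Only 2 of the 5 passed the background test on all 3 CFUe arrays. In CFUe, Thbd passed the background test on 1 of 3 arrays, so its change of -5.34 rests on dim values, and 1 CFUe spot of Itgb7 was left out as an outlier. From CFUe to Ter119 4 of the 5 rose, where 29.2% of all probes did, Nos3 not being well above background on any Ter119 array. With spike-in scaling 2 rose and 1 fell at that step, with a median of 0.89 against 2.14 in the main fit. With quantile scaling 4 rose and 1 fell.

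The targets did not follow the factors everywhere. From KLS to PreGM, Klf4, Klf6 and the second Klf2 probe fell, by 2.82, 1.89 and 2.89. Of the 5 targets 0 were called there, with a median of 0.02, where 2.11% of all probes were called higher and 6.53% lower. With spike-in scaling 2 of the 5 fell at that step. At the step to GMP, where Klf4 and Klf6 gave -0.31 and -0.39 and the second Klf2 probe -0.81, none of them called, 4 of the 5 targets fell (S1pr1 by 4.04, Itgb7 by 2.26, Cdkn1a by 1.93 and Nos3 by 1.01), against 6.36% of all probes. With spike-in scaling S1pr1 and Itgb7 kept their calls there. From GMP to Mac1Gr1 S1pr1 and Itgb7 rose and Cdkn1a fell by 2.61, where 29.1% of all probes rose and 27.6% fell. With spike-in scaling 2 of the 5 rose and 2 fell at that step. The share of Krüppel-like factors in these changes was not tested.

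**Figure D5:**
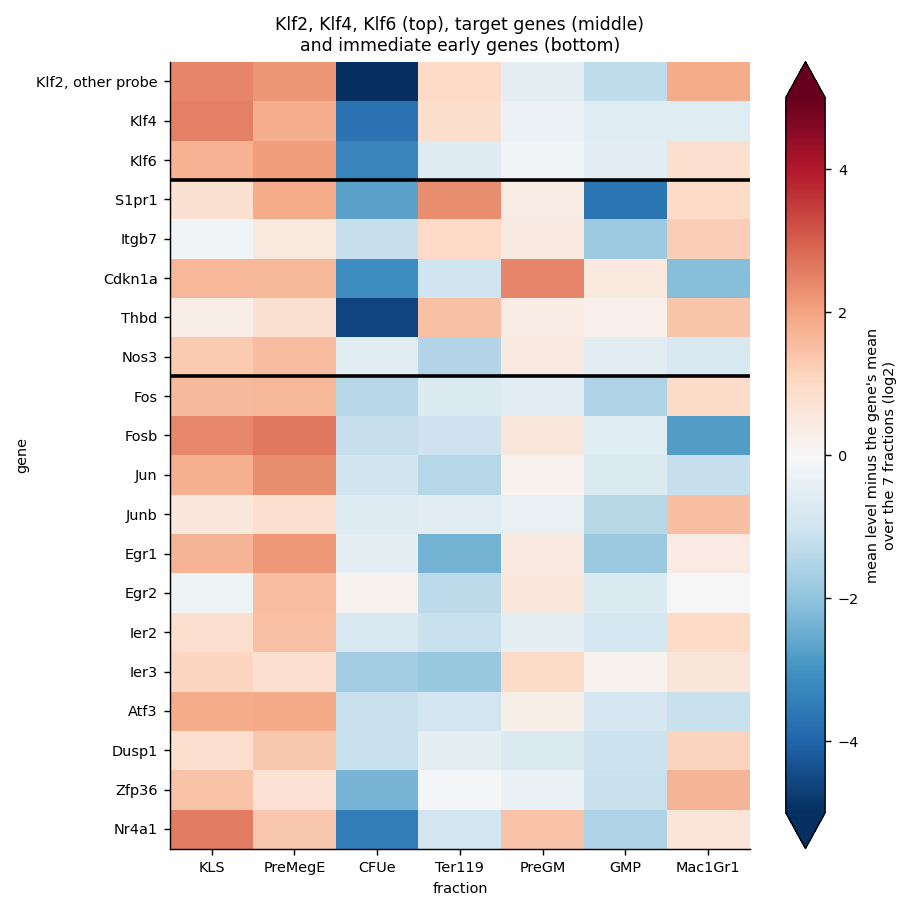
Mean level in each fraction minus the gene's mean over the 7 fractions (log2, colours from -5 to 5) for the second probe of Klf2, Klf4 and Klf6 (top), 5 target genes (middle) and 12 immediate early genes (bottom). CFUe is the lowest fraction for Klf4, Klf6, this probe of Klf2 (the brighter one was lowest in KLS), Cdkn1a and Thbd, and KLS and PreMegE are high for the factors and for most immediate early genes.

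Immediate early genes, which respond quickly to cell handling or growth signals, fell at steps where Klf4 and Klf6 fell, but not with them throughout. Of 12 such genes (Fos, Jun, Egr1 and others), 11 fell from PreMegE to CFUe, where 14.7% of all probes did, with a median of -2.85, and 7 fell from KLS to PreGM, against 6.53%. From PreGM to GMP, where neither Klf4 nor Klf6 was called, 5 fell and 0 rose, against 6.36% and 4.01%. With spike-in scaling 2 fell at that step. From CFUe to Ter119, where Klf4 and Klf6 rose, 2 rose and 2 fell, with a median of 0.11. With spike-in scaling 0 rose and 7 fell there, with a median of -1.26. From GMP to Mac1Gr1, where Klf6 rose and Klf4 gave 0.01, 7 rose and 1 fell, against 29.1% and 27.6%, but with spike-in scaling 0 rose and 4 fell. Their summed level was 903 to 1018 in KLS, 882 to 1052 in PreMegE, 92.3 to 272 in CFUe, 221 to 238 in Ter119, 318 to 473 in PreGM, 137 to 166 in GMP and 824 to 837 in Mac1Gr1. The part of these genes' signals in the levels of Klf2, Klf4 and Klf6 was not tested.

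Among genes upstream of Klf2 and Klf4, Mef2c, a MEF2 factor that the kinase ERK5 (Mapk7) activates, fell by 4.06 from PreMegE to CFUe (SE 0.29, adjusted p = 6.79e-09), the only 1 of 7 listed genes called at that step. With spike-in scaling, which called 27.3% of all probes there, 5 of the 7 were called lower. From CFUe to Ter119, where 29.2% of all probes rose, 5 of the 7 did: Mef2c by 2.38, Foxo1 by 2.77, Foxo3 by 2.37, Mapk7 by 1.31, and Mef2a. With spike-in scaling Mapk7 (-0.07) and Mef2a (-0.11) turned. Foxo1, which induces Klf2 in lymphocytes, and its relative Foxo3 had fallen from PreGM to GMP (by 1.18 and 1.83), against 6.36% of all probes. With spike-in scaling none of the 7 listed genes was called lower at the step to GMP, and 3 were called higher. From GMP to Mac1Gr1 Foxo1 and Foxo3 rose (by 1.54 and 3.60, or -0.49 and 1.57 with spike-in scaling). Mef2c fell by 1.43 at that last step, where the second probe of Klf2 rose.

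Of the partners through which the repressors act, Ctbp1 fell by 1.54 from CFUe to Ter119 (SE 0.12, adjusted p = 4.87e-09), where Klf3 was at its highest, and in CFUe against GMP Ctbp1 was called higher (1.18, or -0.20 with spike-in scaling) and Ctbp2 lower (-1.14). Sin3a was called in no comparison, its changes lying between -0.89 (CFUe to Ter119) and 0.29 (CFUe against GMP). Sin3b was called only between the mature fractions (-1.07 in Ter119 against Mac1Gr1) and in the third-step difference (-1.10). Of 9 listed co-factors, Kat2b alone was called at the step to CFUe (a fall by 1.39), and 2 rose and 3 fell at the step to Ter119, where the shares over all probes were 29.2% and 28.0%. With spike-in scaling 2 fell at the step to CFUe, and 0 rose and 6 fell at the step to Ter119, where it called 69.8% of all probes. Of 7 genes of the TGF-beta pathway, which induces Klf10, 3 fell at the step to CFUe, against 14.7% of all probes, among them the receptor Tgfbr2 (by 2.26) and the inhibitor Smad7 (by 1.77), and Tgfbr2 rose again by 2.16 to Ter119 (0.78 and not called with spike-in scaling). Of 4 glucocorticoid response genes, 2 fell at the step to CFUe and 3 rose at the step to Mac1Gr1, where 29.1% of all probes did, but with spike-in scaling 0 rose and 1 fell at the latter.

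Of 8 other relatives with a probe, 7 passed the filter, Klf14 being well above background on no array. Klf8, which like Klf3 binds CtBP, fell by 1.91 from PreMegE to CFUe (SE 0.15, adjusted p = 1.68e-08), where Klf3 rose. Klf16, which like Klf9 binds Sin3A, fell by 1.98 at the step to Ter119 and fell by 1.58 at the step to Mac1Gr1, the 2 steps at which Klf9 fell. Klf12 was highest in KLS and was called lower in PreMegE (-2.48) and in PreGM (-2.23). Klf17 rose by 1.74 to Ter119 and by 1.21 to Mac1Gr1 (0.36 and -0.82 with spike-in scaling).

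For each member the 2 genes with the most similar levels over the 21 arrays were taken from 12326 genes measured well above background on at least 15 arrays. The levels of Klf4 ran most like Fam214a (Pearson r = 0.958) and Prkce (0.947), those of Klf6 like Rhob (0.964) and Tjp3 (0.944), and those of the second Klf2 probe like Tuba1a (0.954) and Abcg1 (0.947). The brighter Klf2 probe ran most like Grin2d (0.929) and Tfap2e (0.917). The levels of Klf3 ran most like Serinc5 (0.975) and Ap2a2 (0.972), Klf5 like Tmc2 (0.971) and Cd300e (0.965), and Klf7 like Dleu2 (0.996) and Myh9 (0.992). Klf9 ran most like Gnl2 (0.977) and Ankrd17 (0.975), Klf10 like Pogz (0.911) and Mex3c (0.903), and Klf13 like Bach1 (0.947) and Bet1l (0.945). Rhob, a small GTPase, had means of 2.07 in KLS, 2.17 in PreMegE and -2.88 in CFUe, and Myh9, the heavy chain of non-muscle myosin, had its highest mean, 8.46, in Mac1Gr1. The points of these correlations share 7 fractions and carry no test.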

How the data were processed

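The deposited scanner files hold a background-corrected intensity per spot, on a linear scale, extracted by the authors from 1-colour arrays (Agilent Feature Extraction 10.7.1.1). Log2 values normalized between arrays by the authors, in the deposited series table, served as an alternative. The arrays name the annotation build mm9; the promoter sequences are of GRCm38.p6, and no array coordinates were combined with them.

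Control spots and 80 to 283 outlier spots per array were left out, no spot was saturated, spots of a probe were averaged, and each array's 75th percentile was subtracted from log2 intensity. Symbols came from RefSeq accessions (64.8% of 41174 probes). Tests used limma (version 3.58.1, R 4.3.3; functions lmFit and eBayes; two-sided; 14 residual degrees of freedom, median residual SD 0.262), with 1 mean per fraction and no block, and Benjamini-Hochberg adjustment within each comparison. The procedure was tested on simulated data. The number of arrays limits the precision. Arrays lay on 9 slides scanned on 1 day.

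The members, lists, comparisons and tests were chosen with earlier results of these data known. Named genes were the members, listed relatives, co-factors and targets, and for each member the 2 genes with the highest correlation. Alternatives were quantile scaling, scaling to 7 spike-in sequences, normexp correction (offset 50), no filter on dim probes, the series table, a block for slides or for replicate numbers, no minimum fold, 1 probe per gene, the other probe, the compared fractions alone, each array left out, and, chosen after seeing the data, a block for Ddx3y and the 2 scalings applied to the gene lists. Hdac1 and Sp9 on the lists were not analysed here, and 1 listed target is not reported here, so the counts of targets cover part of that list. Plots were made in Python (3.11.15) using matplotlib (3.10.9) and pandas (2.3.3).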

Additional observations from a re-analysis of the deposited data

Results flagged for a closer look

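The following members changed differently on the erythroid and the myeloid side, by the fitted difference between the 2 lineages' changes at the same step (limma, adjusted p under 0.05 and at least 2-fold). At the second step the difference was 2.05 for Klf3, -5.20 for Klf4 and -5.02 for Klf6 on the log2 scale. At the third step it was -1.77 for Klf3, 4.58 for Klf4, -2.34 for Klf5, 1.34 for Klf6, -1.24 for Klf9 and -1.03 for Klf13. Over all probes, 20.2% passed at the second step and 39.9% at the third. The second-step call of Klf3 and the third-step calls of Klf5, Klf6, Klf9 and Klf13 were each lost under some alternative, as given above. The second probe of Klf9 gave 0.31. With 3 arrays per fraction, no array was examined as an outlier within its group.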

How the results depend on the processing

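Of 99 member comparisons, which reuse the same 21 arrays and are not separate results, 39 were called. Over all probes the share called ran from 8.64% (KLS to PreGM) to 57.2% (CFUe to Ter119). Of the 39, 25 kept their direction and call under every alternative other than the gene's second probe. The counts of members called were sensitive as follows. From KLS to PreMegE 1 was called with the series table, 1 with spike-in scaling and 2 with no minimum fold, against 0. From KLS to PreGM 4 were called with no minimum fold, against 2, and PreMegE against PreGM gave 4 with the Ddx3y block, against 2. From PreGM to GMP 4 were called with spike-in scaling, which called 49.1% of all probes there, and 1 with the Ddx3y block, against 0. The second-step difference gave 5 with spike-in scaling (64.9% of all probes), against 3, and the third-step difference 3 with spike-in scaling and 2 with the slide as a block, against 6. Leaving out each array in turn gave 0 to 1 members from KLS to PreMegE, 3 to 5 from PreMegE to CFUe, 3 to 6 for CFUe against GMP, 3 to 4 at the second-step difference and 4 to 7 at the third, and left the counts of the other comparisons as they were. Spike-in scaling moved the median of all probes to between -1.86 (GMP to Mac1Gr1) and 0.99 (PreGM to GMP), and, where either value was called, turned the change from GMP to Mac1Gr1 of Klf2 (-1.45), Klf4 (-2.02), Klf6 (-0.72) and Klf13 (-0.59), that of Klf2 from CFUe to Ter119 (-1.10) and its second-step difference (-1.04). Where either probe's value was called, the other probe turned Klf2 from PreMegE to CFUe (-7.96), from KLS to PreGM (-2.89), in CFUe against GMP (-4.49) and in both differences (-7.14 and 3.64), and the third-step difference of Klf9 (0.31). With neither called, it also turned Klf2 from PreGM to GMP (-0.81) and Klf2 (-0.85) and Klf9 (0.83) in Ter119 against Mac1Gr1. The Ddx3y block turned Klf10 in Ter119 against Mac1Gr1 (1.60). The causes were not tested. The replicate numbers were not treated as pairs. Deviations of same-numbered arrays correlated at -0.43 to 0.37, and 7 of 21 arrays were closest to their own number. Such values over all probes cannot show whether some fractions or genes shared a replicate effect, and replicate 3 was the lowest Klf10 array in most fractions, as given above. With the replicate number as a block, 4 members were called from PreMegE to CFUe and 7 from CFUe to Ter119, as without it, and Klf10 was called in addition in CFUe against GMP (1.08) and in the third-step difference (-1.16). Of 30 called changes between 2 fractions, 13 had arrays of both fractions on a shared slide. These gave 15 within-slide differences, all in the direction of the fit. The differences are of several members on the same few pairs of arrays, which are also part of the fit.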

Other observations

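Of 8 Sp factors with a probe, close relatives that bind the same GC boxes, 6 passed the filter. From GMP to Mac1Gr1, where 29.1% of all probes rose, 4 of them did, Sp4 by 2.22, Sp6 by 1.59, Sp3 by 1.51 and Sp2 by 1.46 (limma). With spike-in scaling 0 rose and 2 fell at that step, and Sp6 (-0.44), Sp3 (-0.52) and Sp2 (-0.57) turned. From CFUe to Ter119 Sp6 (1.38) and Sp2 (1.02) rose, but neither did with spike-in scaling (0.0065 and -0.36) or quantile scaling (0.88 and 0.50). Fbxw7 and Wwp1, ubiquitin ligases known to mark Klf2 and Klf5 for degradation, differed between the lineages at the third step (by -1.39 and -1.16; -0.73 and -0.51 and not called with spike-in scaling).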
